A study of Sus scrofa with 24 samples.

Results

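The genes described here are 10 secreted or secretion-linked defence proteins of the airway: LCN2, LTF, PGLYRP2, S100A8, S100A9, S100A12, PTX3, PIGR, SLPI and SFTPD. They were chosen by name, as the rows of the gene count table that carry these symbols, and they are 10 of the 25880 pig genes counted. Of them, 9 were found by the symbol paired with their Ensembl identifier, and S100A9 was found by its position, since its row has an identifier without a paired symbol. All 10 passed the filter on low counts, which left 14172 genes to test, so no member was lost before testing.

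The cells were primary bronchial epithelial cells of wild-type pigs, 1 month old, released from the bronchi by protease digestion and grown at an air-liquid interface, a culture in which the upper cell surface faces air. There were 24 RNA-seq libraries of total RNA in 6 groups of 4. Each culture first had 1 h with the solvent DMSO or with SB203580 at 20 µM, an inhibitor of the p38 mitogen-activated protein kinases, and then 2 h or 24 h with flagellin at 100 ng/ml or with PBS. The groups were DMSO then PBS (called PBS), DMSO then flagellin (called flagellin), and SB203580 then flagellin, each at both times. No group had SB203580 without flagellin, so an effect of the inhibitor alone was not measured. The labels number the libraries 1 to 4 in each group and do not say whether these are separate pigs or cultures. Each p-value therefore reflects the spread among libraries, and part of that spread may be technical.

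Flagellin is the protein of the bacterial flagellum and is sensed by the receptor TLR5, which signals through NF-kappaB and the mitogen-activated protein kinases, p38 among them. Airway epithelium answers microbes partly by secreting proteins that act on them in the lining fluid. Some starve microbes of metal (LCN2 binds iron-loaded bacterial siderophores, LTF binds iron, the S100 calgranulins bind zinc and manganese or copper), some bind or cut the microbial surface (PGLYRP2, PTX3, SFTPD), and some guard or furnish the mucosa (SLPI, PIGR). Acute-phase proteins are those whose level rises in inflammation, PTX3 being made locally and not mainly in liver.

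Libraries held 26345945 to 36267289 counts assigned to genes (median 32494269.5), so 3 counts, taken as the detection floor, are 0.0827 to 0.114 CPM. CPM is a gene's count divided by the library's total and put on a common depth, here after trimmed-mean scaling, and levels set between genes are CPM per kilobase of annotated exon. The libraries numbered 1 and 2 and those numbered 3 and 4 stood apart as 2 sets in every group: libraries of different sets had correlations of their deviations from the group mean between -0.795 and -0.324. The labels name no cause for the sets. Earlier results of these data showed Y-linked genes in 1 set only, so the 2 sets differ in the animals their cells came from. Whether a batch also differs between them is not known. Because the sets are balanced over the groups, each result below is given from the fit without them and, where it matters, from a fit that adds the set as a term at 2 h and at 24 h (called the set term). Within replicates 1 and 2, a further 5 libraries stood apart (PBS 2 h replicate 2, flagellin 24 h replicate 2, SB203580 plus flagellin 2 h replicate 1 and both of 24 h). Their ciliated markers summed to 12.5 to 22.5 CPM against 33.6 to 64.7 in the other 7, their goblet markers to 402 to 1684 against 1726 to 3369, and their squamous markers to 6326 to 12383 against 2385 to 7691.

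Markers of the labelled cell type were found: basal markers summed to 5637 to 13236 CPM (mostly COL17A1 at 3933 to 9807 CPM, with TP63 at 29.5 to 108 CPM and the keratin KRT15 at only 0.577 to 3.28 CPM), goblet markers to 291 to 3369 CPM, and the club cell marker SCGB1A1 was low at 0 to 14.8 CPM. In such bulk samples, fewer cells of a type and less RNA per cell cannot be told apart. The calgranulins are also abundant in neutrophils, so leukocyte markers were read beside them. Of 16 listed leukocyte genes, 15 were in the table, with a sum of 10.3 to 42.2 CPM that was mostly CD68 (5.36 to 28.4 CPM), which epithelial cells can also carry. The pan-leukocyte gene PTPRC reached at most 0.113 CPM, the neutrophil genes CSF3R and MPO at most 0.172 and 0.0311 CPM, and the T cell gene CD3E was at 0 in all 24 libraries. Other listed genes had counts in all 24 libraries, among them the neutrophil receptor CXCR2 at up to 7.97 CPM, LAPTM5 at 1.56 to 5.71 CPM and CD79A at 1.15 to 4.23 CPM. For the acute-phase genes, liver markers summed to 0.149 to 1.62 CPM, with APOB at 0.

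Per kilobase, S100A8 had the highest mean level over the 24 libraries, 413 CPM per kb, above 99.5% of the tested genes. S100A12 followed at 130 and PIGR at 102 CPM per kb, then SFTPD at 24.5 and S100A9 at 24.1. LCN2 at 13.2, LTF at 12.5 and SLPI at 11.6 lay close together, PGLYRP2 was at 2.27 and PTX3 at 0.205 CPM per kb. The ranges over libraries of neighbours in this order overlapped throughout, for PTX3 at up to 0.759 CPM per kb and PGLYRP2 from 0.552 CPM per kb. The S100A8 model is short, 396 exonic bases, against 4163 for S100A12, so the order between these 2 rests on the annotated lengths.

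**Figure D1:**
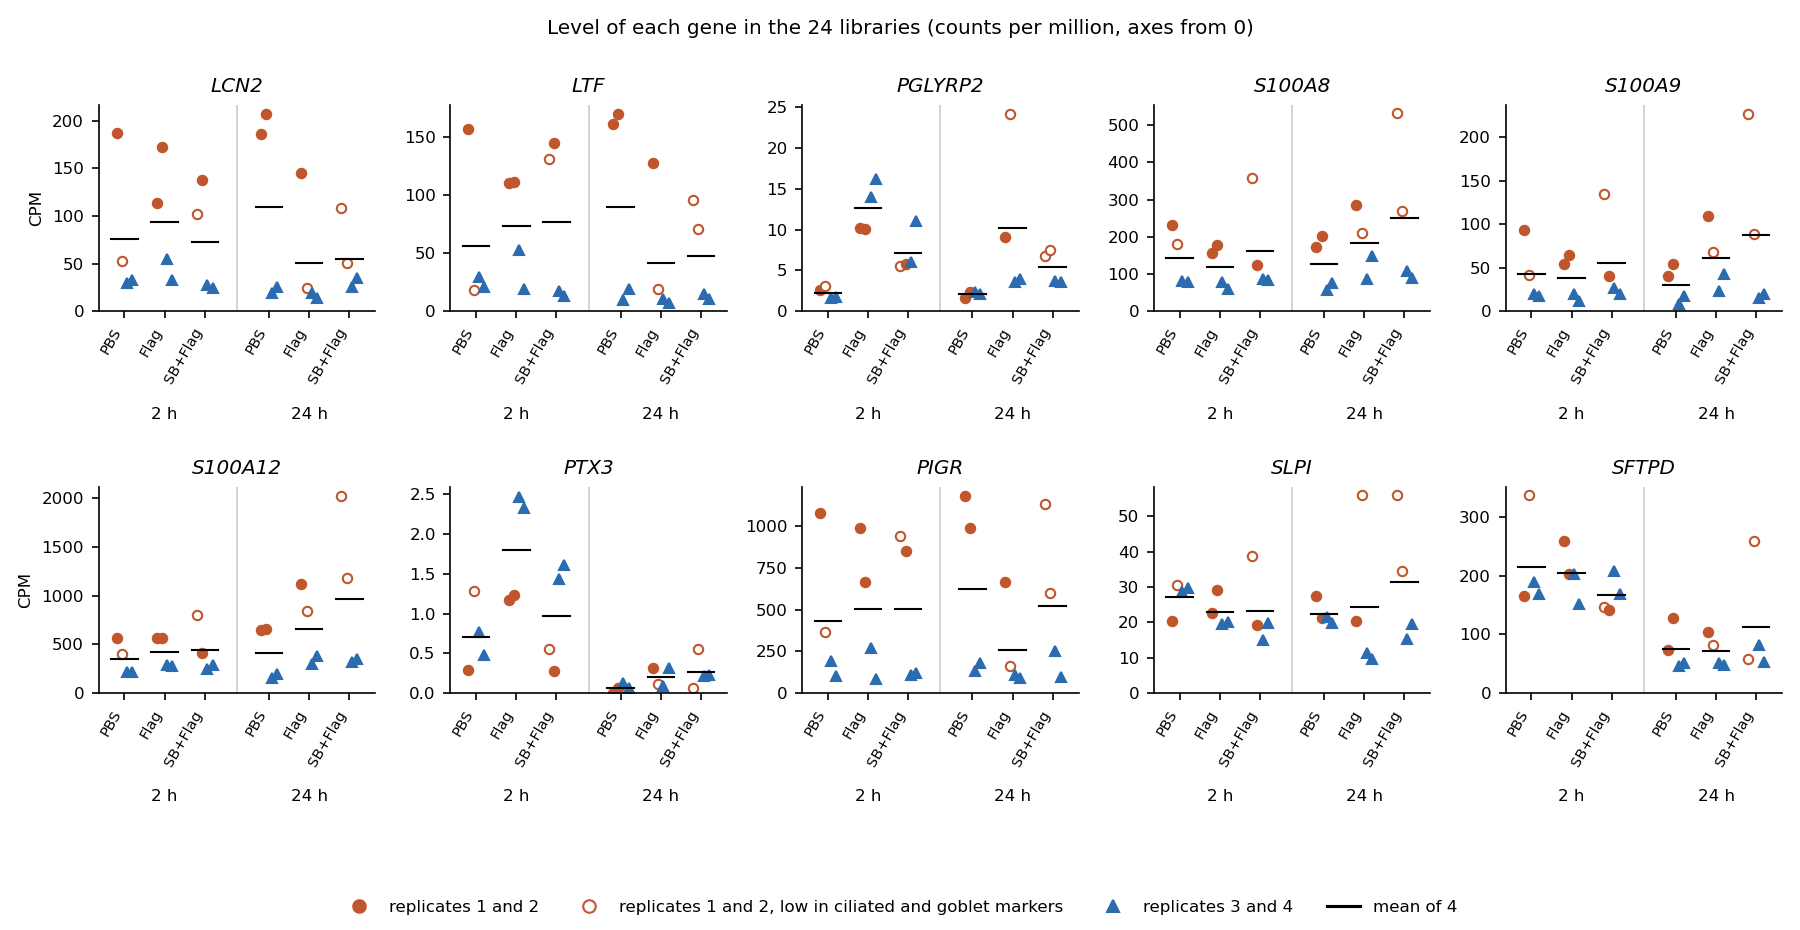
Level of each of the 10 genes in CPM (vertical axes from 0) by group and time. Each point is a library, circles for replicates 1 and 2 (open where low in ciliated and goblet markers), triangles for replicates 3 and 4, and the bar is the mean of 4; PGLYRP2 with flagellin at 2 h lies at 10.1 to 16.2 CPM, above every PBS library.

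PGLYRP2 was the member that rose with flagellin. It encodes an amidase that cuts peptidoglycan, the bacterial wall polymer, between its sugar and its peptide, and the gene lies on chromosome 2 at 62134533 to 62140229 of the table's coordinates, on the plus strand. With PBS for 2 h, replicates 1 to 4 had 2.60, 3.13, 1.61 and 1.74 CPM. With flagellin for 2 h they had 10.15, 10.07, 13.99 and 16.23 CPM. The groups did not overlap, and the lowest flagellin library was above the highest PBS library. The mean rose from 2.27 ± 0.723 to 12.6 ± 3.03 CPM (SD, n = 4), a log2 fold change of 2.47 ± 0.479 (SE, 5.55-fold, edgeR adjusted p = 0.0195, higher in 4 of 4 same-numbered pairs). In that comparison 46 of the 14172 genes were called, 0.325% (0.296% as higher), and 2.42% had flagellin libraries wholly above the PBS libraries. So 1 of the 10 members was called, with no other member past the threshold.

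The size of the PGLYRP2 rise at 2 h was not the same within the sets, and the difference between sets was not tested. In replicates 3 and 4 alone the log2 fold change was 3.18 ± 0.268 (edgeR adjusted p = 2.88e-05), where 1.42% of genes were called, and in replicates 1 and 2 alone 1.82 ± 0.401 (edgeR adjusted p = 0.275). With the set term it was 2.44 ± 0.403 (edgeR adjusted p = 0.00156, 1.28% of genes called higher), and each of the 8 libraries could then be left out with the call kept. Without that term, leaving out flagellin replicate 3 or 4, or any 1 of the 4 PBS libraries, put the edgeR adjusted p at 0.0531 to 0.125 with a log2 fold change of 2.33 to 2.67.

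At 24 h PGLYRP2 was again above PBS in every flagellin library, but unevenly. PBS replicates 1 to 4 had 1.61, 2.41, 2.38 and 2.15 CPM and flagellin replicates had 9.04, 24.2, 3.52 and 4.00 CPM. Replicates 1 and 2 were the high ones with flagellin, and 24.2 CPM belongs to a library low in ciliated and goblet markers. The log2 fold change was 2.25 ± 0.476, with an unadjusted edgeR p of 0.00012 and an edgeR adjusted p of 1.0. In that fit 0.0% of genes were called, and 112 genes, 0.79%, had an unadjusted edgeR p under 0.05. That is less than the share of 0.05 that chance alone would give, so the fit without a block is conservative here. A high adjusted p from it does not show that nothing changed. With DESeq2 in place of edgeR PGLYRP2 was called (log2 fold change 2.27, DESeq2 adjusted p = 0.0126), the 1 gene of all tested, 0.00706%, that DESeq2 called. Only 0.318% of genes had flagellin libraries wholly above PBS at 24 h. Without the 5 libraries low in ciliated and goblet markers the log2 fold change was 1.37 ± 0.327 (edgeR adjusted p = 0.999).

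With SB203580 before flagellin, PGLYRP2 lay between the other groups. At 2 h replicates 1 to 4 had 5.53, 5.76, 6.04 and 11.1 CPM, all above PBS, and each was below the flagellin library of the same number. Against flagellin the log2 fold change was -0.83 ± 0.453 (edgeR adjusted p = 1.0, unadjusted p = 0.0821), where 0.00706% of genes and 0 of 10 members were called, and with the set term -0.83 ± 0.371 (unadjusted p = 0.038, edgeR adjusted p = 0.625). Against PBS it was 1.64 ± 0.468 (edgeR adjusted p = 0.303), where 0.183% of genes were called and 2.11% had libraries wholly above PBS. With the set term that contrast was called (1.61 ± 0.399, edgeR adjusted p = 0.0413), as were 1.98% of genes, but leaving out any library other than PBS replicate 2 gave an edgeR adjusted p of 0.0545 to 0.223. In the fit without a block, 0 of the 10 members had an unadjusted edgeR p under 0.05 for SB203580 plus flagellin against flagellin at either time. With the replicate block PIGR had one at 24 h (0.0118, edgeR adjusted p = 0.542). Both contrasts share libraries with flagellin against PBS.

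At 24 h the SB203580 plus flagellin libraries had 6.71, 7.53, 3.69 and 3.57 CPM of PGLYRP2. Replicate 3 was slightly above its flagellin counterpart and the groups overlapped. Against flagellin the log2 fold change was -0.92 ± 0.455 (edgeR adjusted p = 1.0, unadjusted p = 0.0559), where edgeR called 0.0% of genes and DESeq2 also called 0 members, and in replicates 3 and 4 alone -0.07 ± 0.251. Against PBS it was 1.33 ± 0.465 (edgeR adjusted p = 1.0), with all 4 libraries above all PBS libraries, as for 1.43% of genes. The flagellin effect at 24 h differed from that at 2 h by -0.22 ± 0.647 (edgeR adjusted p = 1.0), where 0.0423% of genes were called. In replicates 3 and 4 alone that difference was -2.45 ± 0.372 (edgeR adjusted p = 0.00858), in a fit that called 0.531% of genes.

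**Figure D2:**
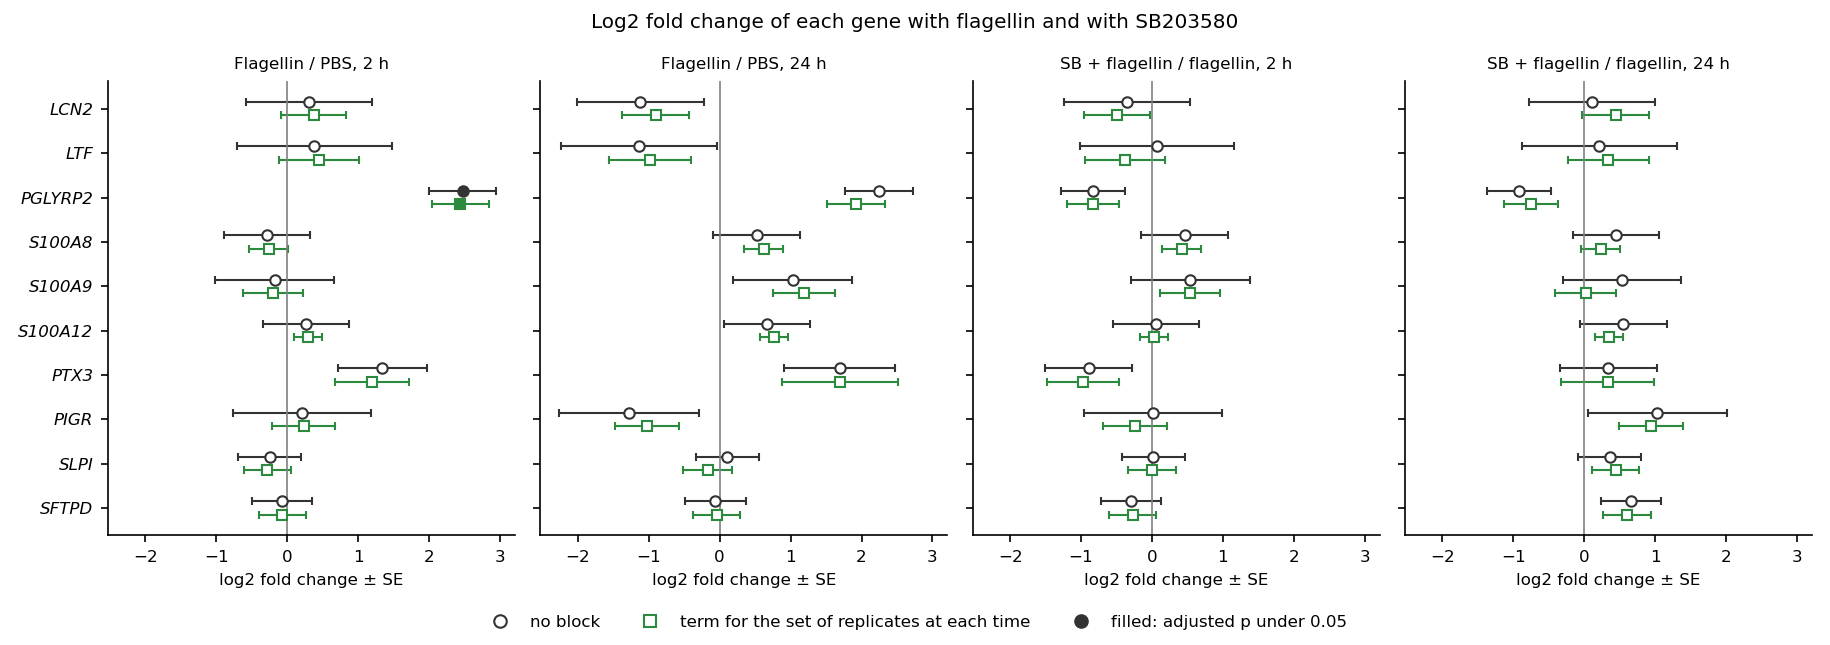
Log2 fold change with SE for each gene (rows) in flagellin against PBS and in SB203580 plus flagellin against flagellin, at 2 h and 24 h, without a block (circles) and with the set term (squares). Filled symbols have an edgeR adjusted p under 0.05: PGLYRP2 at 2 h is the filled row, at 2.47 and 2.44.

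PTX3, the long pentraxin, is a soluble pattern recognition molecule that binds microbes and complement C1q, and its gene is on chromosome 13 at 97273522 to 97280388. It was the least abundant member, with 0 to 82 counts in a library. With PBS for 2 h the libraries had 0.298, 1.28, 0.770 and 0.479 CPM, and with flagellin 1.17, 1.23, 2.47 and 2.32 CPM. Replicate 2 with PBS, a library low in ciliated and goblet markers, reached into the flagellin range, so the groups overlapped. The log2 fold change was 1.34 ± 0.623 (edgeR adjusted p = 0.951, unadjusted p = 0.044). In replicates 3 and 4 alone it was 1.96 ± 0.401 (edgeR adjusted p = 0.0314). Without the 5 libraries low in ciliated and goblet markers and with the set term it was 2.05 ± 0.385 (edgeR adjusted p = 0.00447, 4.66% of genes called), and with the set term alone 1.19 ± 0.522 (edgeR adjusted p = 0.303). SB203580 plus flagellin libraries had 0.549, 0.282, 1.43 and 1.62 CPM at 2 h, each below its flagellin counterpart, with a log2 fold change of -0.89 ± 0.613 (edgeR adjusted p = 1.0).

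PTX3 fell from 2 h to 24 h. At 24 h its counts were 0, 2, 4 and 2 with PBS, 11, 3, 3 and 11 with flagellin, and 2, 17, 8 and 8 with SB203580 plus flagellin, so PBS lay around the floor of 3 counts. Flagellin against PBS at 24 h was 1.69 ± 0.786 on the log2 scale (unadjusted p = 0.0442, edgeR adjusted p = 1.0). The log2 fold change from 2 h to 24 h was -3.43 ± 0.763 with PBS (edgeR adjusted p = 0.00736) and -3.08 ± 0.681 with flagellin (edgeR adjusted p = 0.00772), and the times did not overlap in either group. As the PBS counts at 24 h are near the floor, the size of that fall depends on the fit. With SB203580 plus flagellin it was -1.86 ± 0.657 (edgeR adjusted p = 0.0957), where 6.88% of genes and 0 of 10 members were called. With the replicate number as a block it was -1.84 (edgeR adjusted p = 0.0426, 17.1% of genes called), and with the set term -1.69 (edgeR adjusted p = 0.0347, 27.1% called). In the last fit, leaving out 1 library gave an edgeR adjusted p of 0.00865 to 0.0985. The inhibitor's effect did not pass the test of a difference between times (1.23 ± 0.922, edgeR adjusted p = 1.0, 0.0% of genes called).

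SFTPD, surfactant protein D, is a collectin that binds sugars on microbes, and its gene is on chromosome 14 at 82051276 to 82070302. It changed with time and not detectably with flagellin. With PBS its libraries had 165, 336, 188 and 168 CPM at 2 h and 72.8, 128, 45.9 and 51.6 CPM at 24 h. With flagellin they had 259, 203, 202 and 152 CPM at 2 h and 104, 81.6, 50.8 and 48.8 CPM at 24 h. Every library at 24 h was below every library of its group at 2 h. The log2 fold change was -1.52 ± 0.434 both with PBS (edgeR adjusted p = 0.0299) and with flagellin (edgeR adjusted p = 0.0354). PTX3 and SFTPD were thus 2 of 10 members called in each of these comparisons, against 10.2% and 7.9% of all genes in either direction (4.88% and 3.68% as lower), and 8.24% and 7.12% of genes had the 24 h libraries wholly below those of 2 h.

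Without the set term, leaving out PBS 2 h replicate 2 or 3, or PBS 24 h replicate 1, 3 or 4, gave SFTPD an edgeR adjusted p of 0.05 to 0.108. With flagellin, leaving out replicate 1, 2 or 3 at 2 h, or 2, 3 or 4 at 24 h, gave 0.0571 to 0.101. With the set term the values were -1.60 (edgeR adjusted p = 0.00163) and -1.57 (edgeR adjusted p = 0.00213), and the calls were kept whichever library was left out. Those fits called 33.2% and 28.9% of genes. After SB203580 the SFTPD libraries had 147, 142, 207 and 169 CPM at 2 h and 58.2, 258, 81.7 and 53.2 CPM at 24 h. Replicate 2 at 24 h was the exception among otherwise lower values, and the log2 fold change was -0.56 ± 0.426 with it and -1.37 without it (edgeR adjusted p = 0.518 and 0.0259). Within replicates 3 and 4 alone the fall was called in all 3 treatments, at -1.86, -1.83 and -1.49 on the log2 scale, where 25.0%, 27.7% and 24.7% of genes were called with PBS, flagellin and SB203580 plus flagellin. Within replicates 1 and 2 alone it was not called, at -1.30 with PBS (edgeR adjusted p = 0.187), -1.31 with flagellin (edgeR adjusted p = 0.21) and 0.14 with SB203580 plus flagellin (edgeR adjusted p = 0.905). With only the PBS groups in the fit the edgeR adjusted p was 0.0556.

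SFTPD is made by alveolar type II cells as well as by airway secretory cells, so type II markers were read beside it. SFTPC, the marker most restricted to type II cells, ranged from 0.199 to 84.3 CPM, and the summed type II list from 221 to 2625 CPM. That sum was mostly SFTPA1 (114 to 1739 CPM) and SFTPB (20.6 to 869 CPM), themselves surfactant genes. Of the other listed genes, ABCA3 was at 29.7 to 89.6 CPM, NAPSA at 0.449 to 3.94 CPM and LAMP3 at 0 to 5.1 CPM. PBS 2 h replicate 2, with the most SFTPD (336 CPM), and SB203580 plus flagellin 24 h replicate 2 (258 CPM) had the highest sums, 2625 and 2529 CPM. Flagellin 2 h replicate 1 had 259 CPM of SFTPD and the next highest sum, 1922 CPM. The median sum was 758 CPM with PBS at 2 h and 386 CPM at 24 h, and 1093 and 420 CPM with flagellin. The part of these cells or transcripts in the SFTPD values was not tested.

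**Figure D3:**
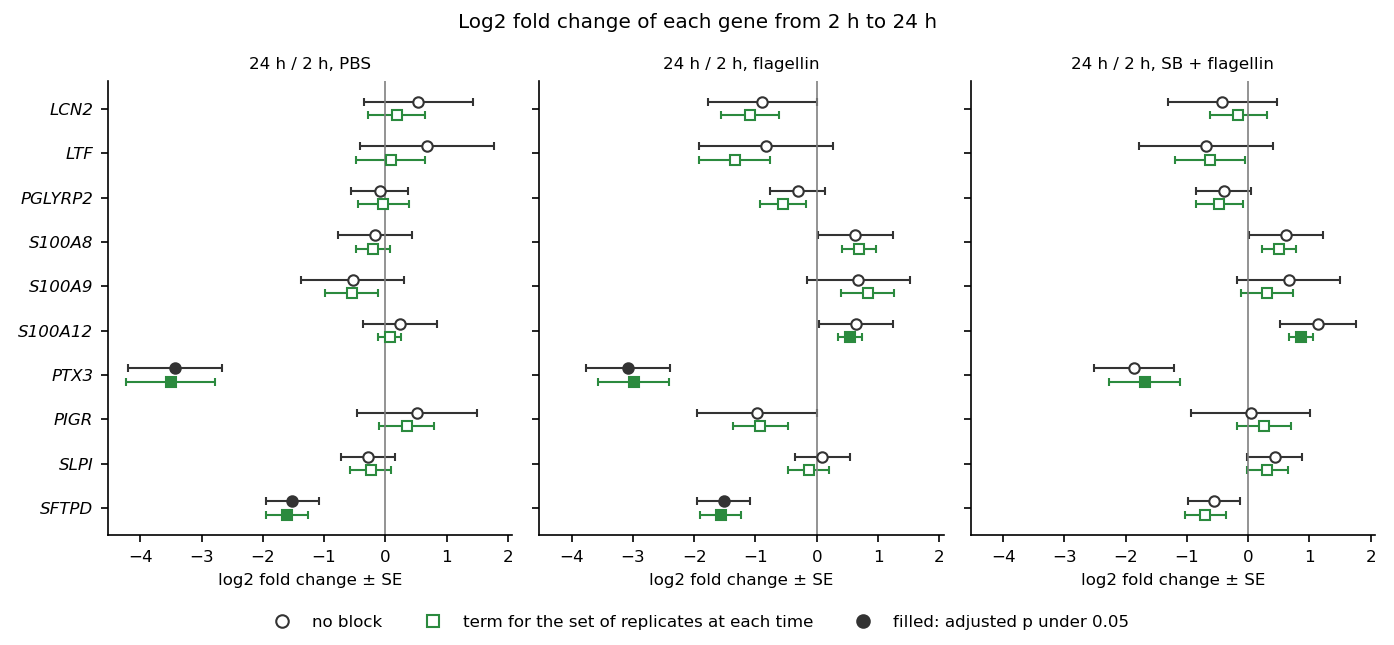
Log2 fold change with SE of each gene from 2 h to 24 h in the PBS, flagellin and SB203580 plus flagellin groups, without a block (circles) and with the set term (squares). Filled symbols have an edgeR adjusted p under 0.05. Without a block these are PTX3 and SFTPD, at -3.43 and -1.52 with PBS and at -3.08 and -1.52 with flagellin. With the set term both are filled there too. Also filled with the set term are S100A12 with flagellin (0.54) and with SB203580 plus flagellin (0.86), and PTX3 with SB203580 plus flagellin (-1.69).

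The calgranulins S100A8, S100A9 and S100A12 are small calcium-binding proteins that starve microbes of metal ions and act on receptors such as AGER and TLR4; S100A8 and S100A9 pair as calprotectin. Their genes are neighbours on chromosome 4, at 96209659 to 96210602, 96235327 to 96239285 and 96225329 to 96229939. None was called for flagellin at 2 h, where their log2 fold changes were -0.28, -0.18 and 0.26. At 24 h all 3 were higher in each flagellin library than in the PBS library of the same number, with log2 fold changes of 0.52 ± 0.608, 1.03 ± 0.843 and 0.67 ± 0.611, none past the threshold (edgeR adjusted p = 1.0). With the set term they were 0.62 ± 0.277, 1.19 ± 0.433 and 0.77 ± 0.194. The unadjusted edgeR p was then 0.0379, 0.0133 and 0.000792, and the edgeR adjusted p 0.962 for each. With the replicate number as a block they were 0.58 ± 0.24, 1.1 ± 0.372 and 0.73 ± 0.218. The unadjusted edgeR p was 0.0252, 0.00813 and 0.00346 in that fit, and again none was called.

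S100A12 had the clearest pattern of the 3 once the sets were a term in the fit. With PBS for 24 h its libraries had 648, 661, 154 and 199 CPM, with flagellin 1115, 846, 299 and 378 CPM, and with SB203580 plus flagellin 2023, 1185, 318 and 348 CPM. Within each set every flagellin library lay above every PBS library, while the groups as wholes overlapped. SB203580 plus flagellin against PBS gave a log2 fold change of 1.22 ± 0.617 (edgeR adjusted p = 1.0, 0.00706% of genes called) and, with the set term, 1.12 ± 0.195 (edgeR adjusted p = 0.0121, 0.459% called). With the replicate number as a block it was 1.11 ± 0.22 (edgeR adjusted p = 0.0706), which misses the threshold.

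The S100A12 call with the set term rested in part on single PBS libraries: without PBS 24 h replicate 1, 2 or 3 the edgeR adjusted p was 0.0594, 0.078 and 0.0595. Without SB203580 plus flagellin replicate 1, its highest library, the log2 fold change was 0.87 (edgeR adjusted p = 0.0359). Without the 5 libraries low in ciliated and goblet markers it was 0.88 with the set term (edgeR adjusted p = 0.0423, 0.153% of genes called), and flagellin against PBS at 24 h was then also 0.88 (edgeR adjusted p = 0.0324, 0.0139% called). Without those 5 and without the set term it was -0.32 ± 0.642, a fit in which only replicates 3 and 4 stand for SB203580 plus flagellin at 24 h. SB203580 plus flagellin against flagellin was 0.55 ± 0.61 (edgeR adjusted p = 1.0) and 0.35 ± 0.194 with the set term (edgeR adjusted p = 0.557).

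From 2 h to 24 h, S100A12 was higher in all 4 same-numbered pairs with SB203580 plus flagellin, at a log2 fold change of 1.14 ± 0.616 (edgeR adjusted p = 0.314). That rise was called with the set term, 0.86 ± 0.194 (edgeR adjusted p = 0.00276), whichever library was left out, and with the replicate block, 0.89 ± 0.219 (edgeR adjusted p = 0.00924). With flagellin alone the set term gave 0.54 ± 0.194 (edgeR adjusted p = 0.0412), lost without any 1 of 7 of the 8 libraries. With PBS it was 0.24 ± 0.608 (edgeR adjusted p = 0.866). Summed leukocyte markers, mostly CD68, were also higher at 24 h, at 32.3 to 42.2 CPM against 12.1 to 28.8 at 2 h with SB203580 plus flagellin. They were higher too with flagellin (24.2 to 40.0 against 11.2 to 21.6 CPM) and with PBS (21.7 to 29.4 against 10.3 to 22.1 CPM), where S100A12 was not called. Their part in the S100A12 values was not tested.

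What separated the calgranulin values most was the set of replicates. At 2 h S100A8 was 125 to 357 CPM in replicates 1 and 2 (n = 6) and 58.6 to 85.5 CPM in replicates 3 and 4 (n = 6), with no overlap. At 2 h 13.1% of all genes, and at 24 h 17.1%, had replicates 3 and 4 wholly below 1 and 2. At 24 h S100A8 was 172 to 531 CPM against 57.3 to 147 CPM. S100A9 was 40.3 to 134 CPM against 12.1 to 26.8 CPM at 2 h, and 40.3 to 227 against 8.04 to 42.5 CPM at 24 h, where the sets just overlapped. S100A12 was 405 to 804 against 216 to 287 CPM at 2 h and 648 to 2023 against 154 to 378 CPM at 24 h.

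LCN2, neutrophil gelatinase-associated lipocalin, and LTF, lactoferrin, withhold iron from bacteria, and PIGR carries polymeric immunoglobulin A across the epithelium and is shed with it as secretory component. LCN2 is on chromosome 1 at 268609633 to 268621997, LTF on chromosome 13 at 29411457 to 29445953 and PIGR on chromosome 9 at 67552807 to 67574827. Of the 5752 exonic bases of the LCN2 model, 875 (15.2%) are shared with exons of C1H9orf16, on the same strand, and CIZ1, on the other. Whether the counting used strand, and how it treated reads in shared bases, is not stated. Part of the LCN2 count could belong to those genes, or LCN2 reads there could have been left out. None of the 3 was called in any comparison of treatments or times in the fits to all libraries. In replicates 3 and 4 alone, LCN2 and LTF fell from 2 h to 24 h with flagellin, by log2 fold changes of -1.43 ± 0.264 and -2.05 ± 0.542 (edgeR adjusted p = 0.00414 and 0.0278). That fit called 27.7% of all genes.

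With PBS for 2 h LCN2 had 187, 52.7, 29.9 and 32.7 CPM in replicates 1 to 4, and with flagellin 114, 173, 54.8 and 32.6 CPM. With SB203580 plus flagellin for 2 h it had 102, 138, 27.8 and 24.6 CPM. Replicates 3 and 4 were low in all 3 groups, as was PBS replicate 2. The log2 fold change with flagellin was 0.31 ± 0.885 at 2 h (edgeR adjusted p = 1.0), and leaving out 1 library moved it between -0.17 and 1.28.

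At 24 h LCN2 had 186, 207, 19.5 and 25.5 CPM with PBS and 146, 23.9, 18.9 and 13.7 CPM with flagellin. SB203580 plus flagellin gave 108, 50.5, 24.9 and 34.5 CPM. Every flagellin library was below the PBS library of its number, by a log2 fold change of -1.12 ± 0.895 (edgeR adjusted p = 1.0). For LTF the same contrast was -1.13 ± 1.10, with 3 of 4 libraries lower, and for PIGR -1.28 ± 0.987, with 4 of 4 lower. In the fit with the replicate block the values were -1.07 ± 0.448 for LCN2, -1.24 ± 0.547 for LTF and -1.16 ± 0.335 for PIGR, with unadjusted p of 0.0273, 0.0361 and 0.00261 and an edgeR adjusted p of 1.0 for each. In each gene the library numbered 2 with flagellin, low in ciliated and goblet markers, was much lower than that numbered 1.

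For the metal- and antibody-handling members too, the sets differed by more than the treatments. With the set term, replicates 3 and 4 were lower than 1 and 2 at 2 h by log2 fold changes of -1.95 ± 0.39 for LCN2, -2.19 ± 0.484 for LTF and -2.48 ± 0.384 for PIGR. S100A8, S100A9 and S100A12 were lower by -1.39, -1.87 and -1.12. Altogether 6 of the 10 members were called lower at 2 h and 9 of 10 at 24 h (edgeR adjusted p = 0.0011 at most at 2 h and 0.00977 at most at 24 h), the exception at 24 h being PTX3 at -0.04 ± 0.602. These shares stand against 25.8% and 32.9% of all tested genes called lower, and 52.0% and 64.6% called in either direction. At 24 h the largest of these differences was -3.12 ± 0.499, for LTF.

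Goblet markers moved with LCN2, LTF and PIGR, but not with the calgranulins within replicates 1 and 2. Summed goblet markers were 402 to 3369 CPM in replicates 1 and 2 and 291 to 1006 CPM in replicates 3 and 4, and serous gland markers other than LTF 31.9 to 191 against 25.6 to 196 CPM. The club and secretory list was also higher in replicates 1 and 2 (median 4597 against 2863 CPM), but within them its median was 5087 CPM in the 5 libraries low in ciliated and goblet markers and 4384 CPM in the other 7. Its sum was mostly ALDH1A1 (1124 to 4350 CPM) and KRT7 (587 to 1350 CPM). Medians over all libraries were 55.9 CPM for SCGB3A1 and for TFF3, 9.77 CPM for BPIFA1, 5.56 CPM for BPIFB1 and 0.502 CPM for SCGB1A1. The sum therefore says little about those secreted products. Within replicates 1 and 2, LCN2 was 23.9 to 108 CPM in the 5 libraries low in ciliated and goblet markers and 114 to 207 CPM in the other 7. How many of all genes separate these libraries in this way was not counted. The 5 had been described in earlier results as low in secretory and ciliated markers, and they are spread unevenly over the treatments. LTF was 18.0 to 131 against 110 to 170 CPM and PIGR 163 to 1135 against 663 to 1181 CPM, both with overlap. The calgranulins had higher medians in those 5 libraries than in the other 7, with overlapping ranges. The medians were 268 against 178 CPM for S100A8, 89.0 against 54.7 CPM for S100A9 and 846 against 569 CPM for S100A12. The part of secretory cell content in these values was not tested.

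SLPI, an inhibitor of neutrophil elastase and related proteases with antimicrobial activity of its own, lies on chromosome 17 at 47595158 to 47599301. It varied least by group, with group means between 22.5 and 31.3 CPM, and was not called for flagellin at 2 h (-0.25 ± 0.445) or 24 h (0.11 ± 0.445) or for SB203580 (0.02 and 0.36). In contrast with LCN2, it was higher in the 5 libraries low in ciliated and goblet markers, 30.4 to 56.0 CPM, than in the other 7 of replicates 1 and 2, 19.2 to 29.2 CPM. How many of all genes are separated in this direction was not counted either. Squamous markers were also higher in those 5. In replicates 3 and 4 alone, SB203580 plus flagellin for 2 h had 15.2 and 19.9 CPM against 28.5 and 29.6 CPM with PBS, a log2 fold change of -0.72 ± 0.152 (edgeR adjusted p = 0.0417, 1.31% of genes called). In the fit to all libraries it was -0.23 ± 0.445 (edgeR adjusted p = 1.0). From 2 h to 24 h SLPI also fell within replicates 3 and 4, by -0.48 ± 0.151 with PBS and -0.91 ± 0.156 with flagellin on the log2 scale (edgeR adjusted p = 0.0379 and 0.00158). Those comparisons called 25.0% and 27.7% of all genes, and SLPI was not called in the fit to all libraries.

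**Figure D4:**
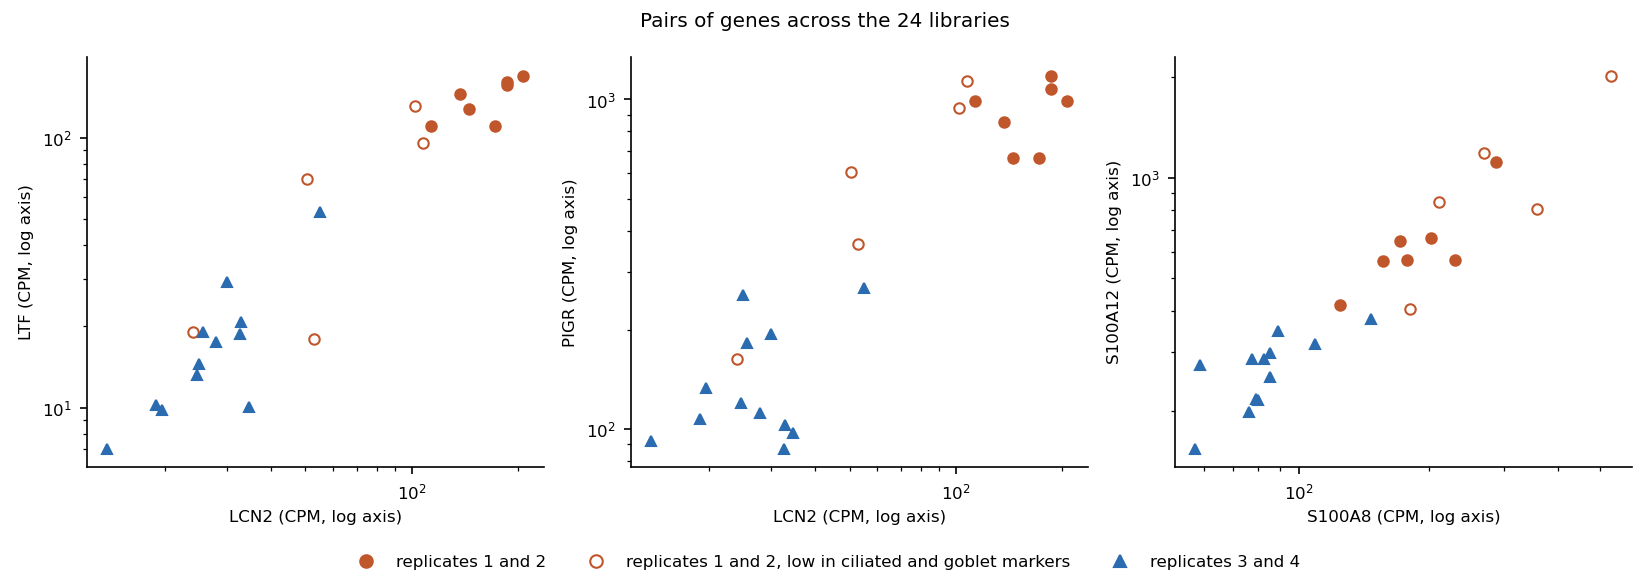
Levels of LTF against LCN2, PIGR against LCN2 and S100A12 against S100A8 in the 24 libraries (CPM, both axes logarithmic). Circles are replicates 1 and 2 (open where low in ciliated and goblet markers) and triangles replicates 3 and 4; the triangles lie toward low values in each panel, and S100A8 does not overlap between the sets at either time.

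Members fell into a few patterns across libraries, described by Pearson's r of log2 CPM within replicates 1 and 2 (n = 12) and within replicates 3 and 4 (n = 12), which share the treatments. LCN2 and LTF had r = 0.891 and 0.837, and LTF and PIGR 0.890 and 0.618. S100A8 and S100A9 had 0.947 and 0.812, and S100A8 and S100A12 0.869 and 0.708. PTX3 and SFTPD, which both fell with time, had 0.864 and 0.877. LCN2 and S100A8 had -0.109 and -0.418, and LCN2 and SLPI changed sign between the sets, -0.666 and 0.601.

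The 3 genes closest to each member, other members left out, were taken by the lower of its 2 r values. For PGLYRP2 they were EHD1 (0.833 and 0.830), TNIP1 (0.798 and 0.966), which encodes a partner of the NF-kappaB inhibitor A20, and SERTAD2 (0.830 and 0.798). For PIGR they were FCGBP (0.969 and 0.914) and CLCA1 (0.901 and 0.879), both goblet cell products, and TFF3 (0.899 and 0.789). For LTF they were MME, TFF3 (0.894 and 0.869) and PGLYRP1 (0.864 and 0.941), another peptidoglycan recognition protein. For LCN2 they were VAV1, GMDS and CFI (0.934 and 0.868), a complement factor.

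Outside the members, the genes closest to the calgranulins had lower values. WFDC5 and the epidermal protease KLK5, at only 0.465 CPM, came up for both S100A8 and S100A9, with WFDC5 at 0.670 and 0.656 for S100A8 and at 0.608 and 0.684 for S100A9, and OSR2 and TGM5 completed these sets of 3. For S100A12 they were JAK1, PSMB10 (0.845 and 0.691) and SHISA4. For SFTPD they were CXCL12 (0.906 and 0.937), which was at only 0.585 CPM, NALF2 and ENPP6. For SLPI they were UBL3, PGM2 and TOMM70.

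Other genes of these pathways, from lists that leave out the 10 members, gave no call among secreted proteins. Of 47 other secreted antimicrobial and mucosal defence genes, 38 were in the table and 30 tested, and of 30 other acute-phase genes 26 and 14. In flagellin against PBS and in SB203580 plus flagellin against flagellin, at either time, 0 were called by edgeR, with or without the set term, or by DESeq2. At an unadjusted edgeR p under 0.05 without the set term there were 0 to 1 of either list in each of these comparisons, and with it 0 to 4. Their median log2 fold changes with flagellin at 2 h were 0.02 and 0.24, against about 0 for all genes, and for the 10 members the median was 0.24. The most abundant of the antimicrobial list per length were S100A2 (2374 CPM per kb), S100A6 (1718), WFDC2 (1270), SFTPA1 (275) and S100A14 (232). Abundant genes of the acute-phase list were FTL (1535 CPM per kb), FTH1 (1354), CP (21.9) and SAA3 (13.1).

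Some genes upstream of such proteins rose. Of 32 listed inducers and regulators, 28 were in the table and 26 tested, and 3 were called higher with flagellin at 2 h, where 0.296% of all genes were called higher. This list was drawn up with earlier results of these data known. The share of it called, with or without the set term, is therefore a description and not a test. NFKBIA, the NF-kappaB inhibitor and feedback target, had 843 ± 467 CPM with flagellin and 114 ± 59.1 CPM with PBS (SD, n = 4; log2 fold change 2.89 ± 0.584, edgeR adjusted p = 0.0285). IL1A, an interleukin-1 that acts on epithelium, had 321 ± 23.2 against 63.3 ± 24.3 CPM (2.34 ± 0.252, edgeR adjusted p = 2.02e-05), and RELB 45.4 ± 10.9 against 21.2 ± 2.71 CPM (1.10 ± 0.224, edgeR adjusted p = 0.0301).

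With the set term 8 of the 26 were called higher, against 1.28% of all genes called higher, among them NFKBIZ (2.45 ± 0.247, edgeR adjusted p = 4.6e-06), the IkappaB-zeta factor known for inducing LCN2 and other defence genes, and LIF (3.57 ± 0.429, edgeR adjusted p = 5.74e-05). Without it NFKBIZ was at 2.37 ± 0.599 (edgeR adjusted p = 0.133) and LIF at 3.42 ± 0.859 (edgeR adjusted p = 0.13). LCN2 itself was at 0.37 ± 0.463 in that fit (edgeR adjusted p = 0.794). IL1A was lower with SB203580 plus flagellin than with flagellin at 2 h, 160 ± 11.2 CPM against 321 ± 23.2 CPM, by a log2 fold change of -1.01 ± 0.155 with the set term (edgeR adjusted p = 0.00488, 0.374% of genes called). Without the set term it was -1.01 ± 0.242 and was not called (edgeR adjusted p = 0.494, DESeq2 adjusted p = 0.0541). The other most abundant regulators per length were ELF3 (146 CPM per kb), EHF (92.0), KLF5 (74.8) and CEBPD (73.4), against 189 for NFKBIA.

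Among 25 listed receptors and partners of the members, 20 were in the table and 13 tested. TLR2, the receptor for bacterial lipoproteins, had 5.12 ± 0.413 CPM with flagellin and 1.95 ± 0.888 CPM with PBS at 2 h (SD, n = 4), higher in 4 of 4 pairs, and was called by edgeR with the set term (1.41 ± 0.325, edgeR adjusted p = 0.0235) but not without it (edgeR adjusted p = 0.267), where DESeq2 gave an adjusted p of 0.0457. The calgranulin receptor AGER was at 76.9 CPM per kb, CALR at 255, BSG at 236, the TLR4 partner LY96 at 23.8 and the lactoferrin and clearance receptor LRP1 at 18.7 CPM per kb. None of these 5 was called in the treatment comparisons.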

How the data were processed

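RNA-seq libraries (24, paired-end, total RNA) were analysed from 1 deposited table of whole-number read counts per gene, which the authors made with featureCounts; STAR 2.4.0a and Subread 1.4.6-p1 are named in the submitters' processing notes. Those notes name the build GRCm38, while the identifiers and coordinates are of pig; the pig assembly and the strand setting are not given in the sources read. Of 31868 features, the 5988 that are not pig genes (at most 0.00514% of a library's counts) were left out. Symbols came from identifiers for 14857 genes and from position for 1606 (reciprocal overlap of at least 0.5 with 1 RefSeq gene of Sscrofa11.1; where both gave a name, 92.6% of 12808 matched).

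Genes were filtered with filterByExpr (14172 left) and fitted with edgeR 4.0.16 in R 4.3.3 (TMM scaling, quasi-likelihood F test, 18 residual degrees of freedom, no block, all 24 libraries), with Benjamini-Hochberg adjustment over all genes and a call at 0.05. The code was tested on simulated data. Same-group libraries differed by far more than sampling noise (chi-square per gene 10.3 to 393 over 36 pairs). Library totals ranged from 26345945 to 36267289, and the floor of 3 counts covers counting error only.

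Replicate numbers are shared by the groups. Same-numbered libraries had correlated deviations (r 0.211 to 0.797 over 60 pairs, median 0.599, 60 of 60 over 0.1). The numbers served as pairs only in the replicate block and where libraries of the same number were compared, not in the fit without a block. Libraries of the same set with other numbers had nearly the same correlation (median 0.603), and 15 of 24 libraries correlated best with their own number. Pairing by number within a set was thus not shown, and comparisons of same-numbered libraries mainly compare within the sets.

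Alternatives were RLE scaling, DESeq2 1.42.0, no filter, a replicate block, a set term at each time, each set alone, only the groups compared, leaving out the 5 libraries low in ciliated and goblet markers, and leaving out each library. The last 2 with the set term were added after seeing the data. All 10 members are described. Of the other lists (other secreted antimicrobial, other acute-phase, receptors and partners, inducers and regulators), the text names up to 5 called genes per comparison and the 5 most abundant per length, except 1 gene that is not reported here; the 3 genes most like a member were taken over members of at least 5 CPM. Members, lists and the set split were chosen with earlier results of these data known.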

Additional observations from a re-analysis of the deposited data

Results flagged for a closer look

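Of 60 groups of 4 libraries tested for a single distant value (10 genes in 6 groups), 9 had one beyond Dixon's 95% critical value; chance flags about 1 in 20. In 6 of the 9, replicate 1 stood above the other 3 libraries of its group for a gene that differs between the sets. LCN2 was 187 CPM in PBS 2 h replicate 1 (next 52.7 CPM) and 146 CPM in flagellin 24 h replicate 1 (next 23.9 CPM). LTF was 156 CPM and 128 CPM in the same libraries (next 29.1 and 19.0 CPM). PIGR was 663 CPM in flagellin 24 h replicate 1 (next 163 CPM). In both groups replicate 2 is a library low in ciliated and goblet markers. The sixth was S100A8, with 357 CPM in SB203580 plus flagellin 2 h replicate 1 (next 125 CPM), itself such a library.

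PGLYRP2 was 11.1 CPM in SB203580 plus flagellin 2 h replicate 4 (next 6.04 CPM). SFTPD was 336 CPM in PBS 2 h replicate 2 (next 188 CPM) and 258 CPM in SB203580 plus flagellin 24 h replicate 2 (next 81.7 CPM), the libraries with the highest sums of alveolar type II markers, 2625 and 2529 CPM. The causes of these values were not tested.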

How the results depend on the processing

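For flagellin against PBS at 2 h, 1 member was called; the count was 0 with replicates 1 and 2 alone, 2 with only replicates 3 and 4, and 2 without the 5 libraries low in ciliated and goblet markers with the set term. At 24 h it was 0, and 1 with DESeq2 or without those 5 with the set term. For SB203580 plus flagellin against PBS at 2 h the count was 0, with 1 under the set term, 1 without the 5 libraries (with or without the set term) and 2 in replicates 3 and 4 alone; at 24 h it was 0, with 1 under the set term and 1 without the 5 with the set term. For 24 h against 2 h with PBS it was 2 (10.2% of all genes called), 1 and 3 in the sets alone (25.0% in replicates 3 and 4) and 0 with only the groups compared. With flagellin it was 2 (7.9%), 3 under the set term (28.9%) and 0 and 7 in the sets alone (27.7% in replicates 3 and 4). It was 3 without the 5 libraries and 8 without the 5 with the set term. The 7 were LCN2, LTF, PGLYRP2, PTX3, S100A8, SFTPD and SLPI (1 higher, 6 lower). The 8 were LCN2, PGLYRP2, PTX3, S100A8, S100A9, S100A12, SFTPD and SLPI (3 higher, 5 lower). With SB203580 plus flagellin it was 0 (6.88%), 1 by DESeq2, 2 with the replicate block (17.1%) and 2 with the set term (27.1%). It was 1 and 3 in the sets alone (24.7% in replicates 3 and 4) and 3 without the 5 with the set term. The share of all genes called was not counted for the fits over time without the 5, nor for SB203580 plus flagellin against PBS at 2 h without them. The member counts of those fits can therefore not be set against a share. The flagellin by time test gave 0 and, in replicates 3 and 4 alone, 1. The replicate block (pairing by number) changed no other call of a member.

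Leaving out 1 library gave counts of 0 to 1 for flagellin against PBS at 2 h, 1 to 2 for 24 h against 2 h with PBS and with flagellin, and 0 to 1 with SB203580 plus flagellin. With the set term the ranges were 1 to 2, 2 to 2, 2 to 5 and 1 to 3, and 0 to 1 for SB203580 plus flagellin against PBS at 2 h and at 24 h. Shares of all genes called were not counted for the fits with 1 library left out.

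Of the 90 log2 fold changes (10 genes in 9 comparisons), 57 changed sign in at least 1 alternative. Of these, 0 had been called in the fit without a block, and 2 changes were called in the alternative, both for SLPI from 2 h to 24 h with flagellin (replicates 3 and 4 alone, and without the 5 libraries with the set term). With the replicate block, SLPI was -0.08 and SFTPD 0.01 for flagellin against PBS at 24 h. LTF was -0.4, S100A12 -0.02, PIGR -0.1 and SLPI -0.01 for SB203580 plus flagellin against flagellin at 2 h. SLPI was -0.08 for 24 h against 2 h with flagellin. Under the set term, SLPI was -0.17 for flagellin against PBS at 24 h. LTF was -0.38 and PIGR -0.24 for SB203580 plus flagellin against flagellin at 2 h. SLPI was -0.13 for 24 h against 2 h with flagellin. In replicates 1 and 2 alone, SLPI was 0.03 for flagellin against PBS at 2 h. LCN2 was -0.11 for SB203580 plus flagellin against flagellin at 24 h. PTX3 was -0.95 and SLPI 0.17 for SB203580 plus flagellin against PBS at 2 h. PGLYRP2 was 0.71 for 24 h against 2 h with flagellin. PGLYRP2 was 0.34, PIGR -0.04 and SFTPD 0.14 for 24 h against 2 h with SB203580 plus flagellin. In replicates 3 and 4 alone, SLPI was -0.97 and SFTPD 0.03 for flagellin against PBS at 24 h. LTF was -1.22, S100A12 -0.06, PIGR -0.62, SLPI -0.19 and SFTPD 0.09 for SB203580 plus flagellin against flagellin at 2 h. S100A8 was -0.25, S100A9 -0.92 and S100A12 -0.04 for SB203580 plus flagellin against flagellin at 24 h. LTF was -0.69, PIGR -0.34 and SFTPD 0.09 for SB203580 plus flagellin against PBS at 2 h. LCN2 was 0.38, PIGR 0.15 and SLPI -0.27 for SB203580 plus flagellin against PBS at 24 h. LCN2 was -0.47, LTF -0.78, PGLYRP2 0.44 and S100A12 -0.28 for 24 h against 2 h with PBS. SLPI was -0.91 for 24 h against 2 h with flagellin. LCN2 was 0.17, S100A9 -0.44 and SLPI -0.03 for 24 h against 2 h with SB203580 plus flagellin. Without the 5 libraries, which leaves only replicates 3 and 4 in SB203580 plus flagellin at 24 h, SFTPD was 0.24 for flagellin against PBS at 2 h. SLPI was -0.69 for flagellin against PBS at 24 h. LTF was -0.33, S100A8 -0.27, S100A9 -0.39, S100A12 -0.41, PIGR -0.48 and SLPI -0.34 for SB203580 plus flagellin against flagellin at 2 h. LCN2 was -1, LTF -1.98, S100A8 -0.81, S100A9 -1.75, S100A12 -0.85, PTX3 -0.13, PIGR -0.71 and SFTPD -0.02 for SB203580 plus flagellin against flagellin at 24 h. LTF was -0.23, S100A8 -0.41, S100A9 -0.59, S100A12 -0.06 and PIGR -0.33 for SB203580 plus flagellin against PBS at 2 h. S100A8 was -0.36, S100A9 -0.77, S100A12 -0.32, SLPI -0.37 and SFTPD -0.14 for SB203580 plus flagellin against PBS at 24 h. PGLYRP2 was 0.11 for 24 h against 2 h with PBS. SLPI was -0.72 for 24 h against 2 h with flagellin. S100A9 was -0.74, PIGR -1.04 and SLPI -0.07 for 24 h against 2 h with SB203580 plus flagellin. Without the 5 libraries and with the set term, SFTPD was 0.23 for flagellin against PBS at 2 h. SLPI was -0.66 and SFTPD 0.05 for flagellin against PBS at 24 h. LTF was -0.51, S100A12 -0.17, PIGR -0.34 and SLPI -0.33 for SB203580 plus flagellin against flagellin at 2 h. S100A8 was -0.21, S100A9 -0.89 and PTX3 -0.14 for SB203580 plus flagellin against flagellin at 24 h. LTF was -0.42, S100A8 -0.23, S100A9 -0.19 and PIGR -0.34 for SB203580 plus flagellin against PBS at 2 h. LCN2 was 0.4, PIGR 0.15 and SLPI -0.12 for SB203580 plus flagellin against PBS at 24 h. LCN2 was -0.16, LTF -0.33 and PGLYRP2 0.16 for 24 h against 2 h with PBS. SLPI was -0.69 for 24 h against 2 h with flagellin. LCN2 was 0.58 and S100A9 -0.11 for 24 h against 2 h with SB203580 plus flagellin.

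With 1 library left out, with or without the set term, LCN2 ranged from -0.17 to 1.28, LTF -0.05 to 1.69, S100A8 -0.55 to 0.05, S100A9 -0.57 to 0.53, PIGR -0.35 to 1.19 and SFTPD -0.21 to 0.24 for flagellin against PBS at 2 h. SLPI ranged from -0.69 to 0.38 and SFTPD -0.31 to 0.33 for flagellin against PBS at 24 h. LCN2 ranged from -0.86 to 0.12, LTF -0.57 to 0.42, S100A8 -0.27 to 0.73, S100A9 -0.39 to 0.93, S100A12 -0.41 to 0.25, PIGR -0.48 to 0.57 and SLPI -0.34 to 0.18 for SB203580 plus flagellin against flagellin at 2 h. LCN2 ranged from -0.46 to 1.53, LTF -0.38 to 1.98, S100A8 -0.23 to 0.75, S100A9 -0.56 to 0.98, S100A12 -0.09 to 0.93, PTX3 -0.42 to 0.65, SLPI -0.08 to 1.15 and SFTPD -0.15 to 0.9 for SB203580 plus flagellin against flagellin at 24 h. LCN2 ranged from -0.55 to 0.93, LTF -0.36 to 1.76, S100A8 -0.55 to 0.52, S100A9 -0.57 to 1.07, S100A12 -0.14 to 0.66, PTX3 -0.14 to 1.01 and PIGR -0.27 to 1.2 for SB203580 plus flagellin against PBS at 2 h. PIGR ranged from -0.97 to 0.26 and SFTPD -0.21 to 0.99 for SB203580 plus flagellin against PBS at 24 h. LCN2 ranged from -0.08 to 1.51, LTF -0.3 to 1.99, PGLYRP2 -0.29 to 0.27, S100A8 -0.49 to 0.16, S100A9 -0.98 to 0.18 and S100A12 -0.07 to 0.57 for 24 h against 2 h with PBS. SLPI ranged from -0.7 to 0.35 for 24 h against 2 h with flagellin. LCN2 ranged from -1 to 0.15, S100A8 -0.06 to 1.35, S100A9 -0.42 to 1.59, PIGR -0.67 to 0.53 and SLPI -0.01 to 0.79 for 24 h against 2 h with SB203580 plus flagellin. Depth limits PTX3, whose 24 h PBS libraries hold 0 to 4 counts. For other results the cause was not tested.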

Other observations

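Beyond the comparisons above, other secreted defence genes also differed between the sets of replicates. Of the 30 tested genes of the other secreted antimicrobial list, 20 were lower and 1 higher in replicates 3 and 4 than in 1 and 2 at 2 h, with a median log2 fold change of -1.17 against -0.01 for all genes; at 24 h 25 were lower and 0 higher, with a median of -1.24 against -0.02. Among the 14 tested genes of the other acute-phase list 6 were lower and 3 higher at each time. These are counts with the set term, where 25.8% of all genes at 2 h and 32.9% at 24 h were called lower, and 52.0% and 64.6% in either direction.

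From 2 h to 24 h with flagellin, STEAP4 was the single gene of the other acute-phase list called without the set term. With it, 5 of the 14 were lower and 1 higher, among them STEAP4, HP, CP, CD14 and LBP, against 28.9% of all genes called in either direction. The antimicrobial list had 5 of 30 lower and 0 higher, namely S100A2, SFTPB, SFTPC, DMBT1 and PGLYRP1.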
